A study of Mus musculus with 9 samples.

Results

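The genes described here are targets of the nuclear receptor PPAR-alpha and enzymes of fatty acid oxidation in mouse liver, 35 genes chosen by symbol, of which 34 were measured as a single symbol among 21130 single symbols on the array. Etfb shares its probe set with the microRNA gene Mir7051 and was therefore left out. Each of the 34 genes had 1 probe set. Liver RNA of male C57BL/6JHamSlc-ob/ob mice, obese through the loss of leptin, was hybridised to Affymetrix Clariom S arrays. Every mouse thus carried the ob/ob mutation and ate standard chow, and all were 6 weeks old when obtained. They were given by gavage, for 42 days, vehicle, 50 mg/kg of an extract of Vigna umbellata (the rice bean), called VE50 here, or 100 mg/kg, called VE100. Each of the 3 groups had 3 arrays. The labels number the arrays of a group and do not say that each came from a separate animal, so p-values measure only the spread between these arrays. Wild-type mice named in the study's design were not analysed here.

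PPAR-alpha pairs with the retinoid X receptor and, when bound by fatty acids, switches on genes for the uptake, activation and breakdown of fatty acids. Inside the cell a fatty acid is coupled to coenzyme A, carried into the mitochondrion through the carnitine shuttle and shortened stepwise by beta-oxidation, while very long chains are first shortened in the peroxisome. In liver the products feed ketone body synthesis during fasting, and the fatty liver of ob/ob mice is a common setting for the study of this pathway. Among the genes described are the receptor itself, enzymes of each of these steps, and secreted factors whose genes PPAR-alpha is known to drive.

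Values are the authors' log2 signal, on which a difference of 1 is a doubling; levels of different genes are not compared, since probe sets differ in brightness. The 8 hepatocyte markers were high on every array, with a mean log2 signal between 17.77 and 18.40. Of the lists for adipocytes, striated muscle, lymphocytes and neutrophils, no gene passed the 95th percentile of its array's negative control probe sets on any array. The list of Kupffer cell markers averaged 6.83 to 6.98 on vehicle arrays, 6.26 to 7.27 on VE50 arrays and 5.49 to 6.49 on VE100 arrays. Of its 7 genes only 1, Cd5l, passed that level on any array. Cd5l differed by -2.13 for VE100 against vehicle, and by -1.75 without vehicle 3. The part of this list in the results was not tested. The endothelial list, of which 3 of 6 genes passed that level on any array, averaged 8.25, 8.43 and 7.22 on vehicle 1, 2 and 3, and 7.57 to 8.02 on the 6 treated arrays. Bulk liver RNA does not tell fewer cells of a type apart from less RNA per cell. Of the 34 genes, 26 lay above the negative control level on all 9 arrays, 6 on some and 2, Fgf21 and Pdk4, on none.

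The array vehicle 3 stood apart. It was the lowest of the 9 arrays for 19 of the 34 genes, or 55.9%, against 20.6% of all probe sets. It was the highest for none of the 34, against 24.2% of all probe sets. The median gene lay 0.68 below its own mean over the 9 arrays on vehicle 3, against 0.32 above it on vehicle 1 and 0.31 above it on vehicle 2. On VE100 2 the median gene lay 0.37 above its mean. This array was the highest for 10 of the 34, or 29.4%, against 8.62% of all probe sets. The median deviation over all probe sets stayed between -0.03 and 0.02 on every array. Acute phase genes moved with vehicle 3: their list averaged 16.16 there, against 10.25 to 12.51 on the other 8 arrays, and Saa2 read 18.75 there against 7.84 to 11.81 elsewhere. Signal on vehicle 3 correlated with that of the other arrays between 0.948 and 0.967 across genes. The part of these differences in the results was not tested. A later figure shows the comparisons of the 34 genes with vehicle also without vehicle 3, and the text gives some of those values. In the heat map by array, vehicle 3 is the column with most blue, and VE100 2 holds the darkest red among the thioesterases.

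**Figure D1:**
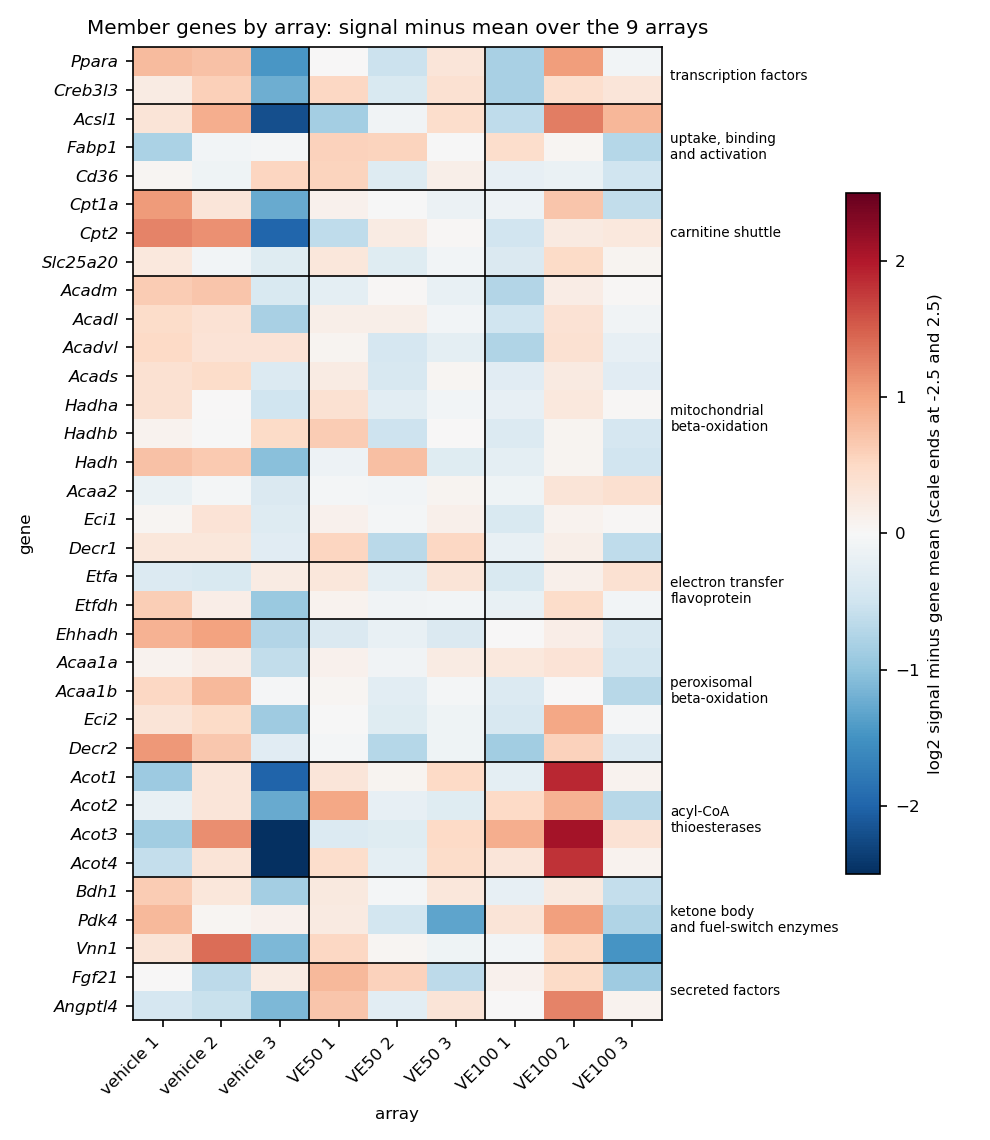
Log2 signal of the 34 genes (rows, by role) on the 9 arrays (columns, by group and dose), as the difference from each gene's mean over the 9 arrays; red is above and blue below the mean, and cells past 2.5 are drawn at the end of the scale. Vehicle 3 is the lowest array for 19 genes, and VE100 2 the highest for 10.

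With all arrays, limma called no probe set at an adjusted p under 0.05 for either dose against vehicle. The study itself counted genes with p under 0.05 before adjustment and a change of more than 1.1-fold, called the criterion here. By it, 1 of the 34 genes passed for VE50 against vehicle, Angptl4, as higher, where 6.12% of all probe sets passed (3.31% higher, 2.80% lower). For VE100 against vehicle 5 passed, Angptl4, Acot1, Acot3 and Acot4 as higher and Acaa1b as lower, or 14.7% of the genes against 9.48% of all probe sets. The higher calls stood at 4 of 34 against 5.11% of all probe sets, and the lower at 1 of 34 against 4.37%. The median difference over the 34 genes was 0.03 for VE50 and -0.01 for VE100, beside -0.01 and -0.01 over all probe sets. As many genes lay above 0 as below it for VE100, 17 each, and 19 lay above and 15 below for VE50. VE50 and vehicle arrays did not overlap for 2 genes higher (Angptl4, Fabp1) and 1 lower (Acadvl), where 10.9% of all probe sets did not overlap (6.16% higher, 4.69% lower). VE100 and vehicle arrays did not overlap for 1 gene higher (Angptl4) and 1 lower (Cd36), where 13.6% of all probe sets did not (7.47% higher, 6.08% lower). These counts depended on the array controls: with the mean hybridization control of each array as a covariate, called the control-adjusted fit here, the median over the 34 genes was 0.52 for VE50 and 0.75 for VE100. For VE50 5 genes then passed, all as higher (Angptl4, Acot1, Acot2, Acot4 and Creb3l3), where 6.25% of all probe sets passed (3.22% as higher). For VE100 7 passed, those 5 with Acot3 and Eci2, all as higher, where 5.94% of all probe sets passed (3.02% as higher). The covariate is a mean of 4 control probe sets. It was 10.73 to 11.01 on vehicle arrays, 10.93 to 11.27 on VE50 arrays and 11.15 to 11.44 on VE100 arrays. It tended to rise with dose, so the control-adjusted fit cannot tell treatment apart from this difference between arrays. Its differences are a check on the setting, not corrected effects.

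**Figure D2:**
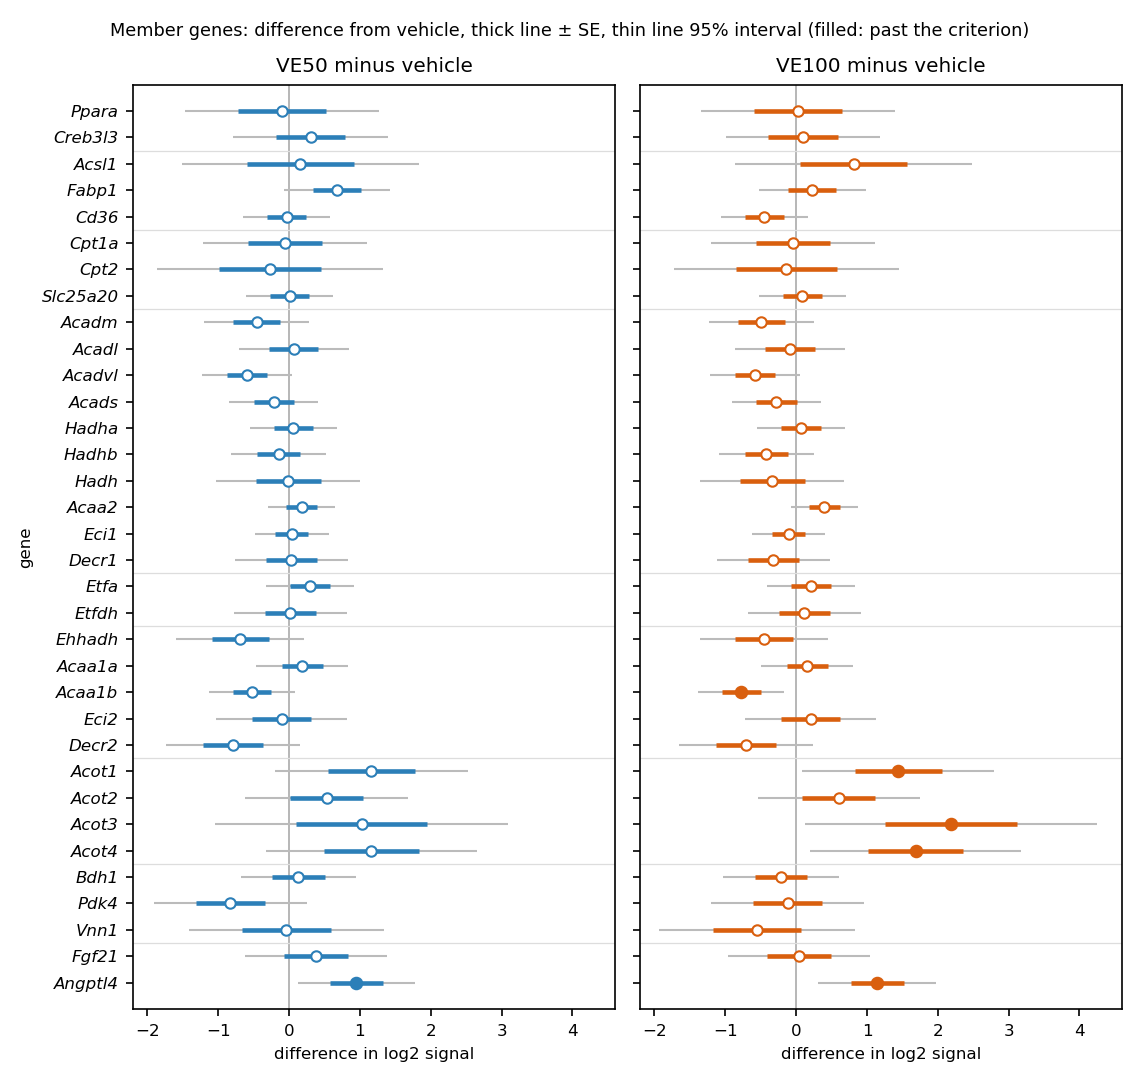
Difference in log2 signal from vehicle for each of the 34 genes (rows, by role), for VE50 (left) and VE100 (right); thick lines are ± SE and thin lines 95% intervals of the limma fit with 3 arrays per group, and filled points passed the study's criterion. Only Angptl4 is filled on the left, and Angptl4, Acot1, Acot3, Acot4 and Acaa1b on the right.

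Among the transcription factors neither gene passed the criterion at either dose. Ppara, the receptor, read 12.41, 12.34 and 10.15 on vehicle arrays, 11.61, 11.07 and 11.92 on VE50 arrays, and 10.79, 12.65 and 11.55 on VE100 arrays. The 3 groups overlapped, with the widest spread among the vehicle arrays. Its difference was -0.10 ± 0.62 (SE, 3 arrays per group) for VE50 and 0.03 ± 0.62 for VE100, with a 95% interval from -1.34 to 1.40 at VE100, which holds a doubling as well as its reverse. Creb3l3, a liver transcription factor that works together with PPAR-alpha on fasting genes, differed by 0.30 ± 0.49 for VE50 and 0.10 ± 0.49 for VE100. Without vehicle 3 the difference of Ppara was -0.84 for VE50 (adjusted p = 0.452) and -0.71 for VE100 (adjusted p = 0.465), neither past the criterion. Both genes lay higher in the control-adjusted fit: Ppara stood at 0.98 for VE50 and 1.85 for VE100, not past the criterion, and Creb3l3 passed as higher at 1.22 and 1.65 (adjusted p = 0.779 and 0.806).

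None of the 3 genes of fatty acid uptake, binding and activation passed the criterion. Fabp1, the fatty acid binding protein of liver, read 17.97, 18.70 and 18.72 on vehicle arrays, 19.35, 19.33 and 18.75 on VE50 arrays, and 19.21, 18.81 and 18.06 on VE100 arrays. Every VE50 array lay above every vehicle array, with VE50 3 only just above vehicle 3, while VE100 and vehicle arrays overlapped. The difference was 0.68 ± 0.34 for VE50 (limma, adjusted p = 0.823) and 0.23 ± 0.34 for VE100; without vehicle 3 the VE50 difference was 0.81 and passed the criterion (adjusted p = 0.352). Cd36, a fatty acid transporter of the cell surface, was lower on all VE100 arrays (14.36, 14.40, 14.06) than on the vehicle arrays (14.61, 14.46, 15.09). That gap of -0.45 ± 0.27 missed the criterion (adjusted p = 0.633), and it was -0.26 without vehicle 3. Acsl1, which couples long-chain fatty acids to coenzyme A, differed by 0.81 ± 0.75 for VE100 with all arrays and by -0.12 without vehicle 3, where it was lowest.

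The carnitine shuttle genes lay near 0 with all arrays. Cpt1a encodes the carnitine palmitoyltransferase of the outer mitochondrial membrane, the step that controls entry. It differed by -0.05 ± 0.52 for VE50 and -0.05 ± 0.52 for VE100. Without vehicle 3 the differences of Cpt1a were -0.70 for VE50 and -0.70 for VE100, neither past the criterion. Slc25a20, the carnitine-acylcarnitine carrier, differed by 0.01 ± 0.27 for VE50 and 0.09 ± 0.27 for VE100. Cpt2, which returns the acyl group to coenzyme A on the inner side, read 10.54, 10.44 and 7.31 on vehicle arrays, 8.66, 9.50 and 9.32 on VE50 arrays, and 8.82, 9.51 and 9.55 on VE100 arrays. Vehicle 1 and 2 lay above, and vehicle 3 below, every treated array. The difference was thus -0.27 ± 0.72 for VE50 and -0.14 ± 0.72 for VE100 with all arrays, but -1.33 (adjusted p = 0.0948) and -1.20 (adjusted p = 0.0730) without vehicle 3, where Cpt2 passed the study's criterion at both doses. Cpt2 lay above the negative control level on 6 of 9 arrays.

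Of the 10 genes of mitochondrial beta-oxidation none passed the criterion at either dose, and for VE100 8 of the 10 lay below vehicle. The list's median difference was 0.01 for VE50 and -0.30 for VE100, with single genes between -0.59 and 0.40. These directions depended on the setting: the VE100 median was -0.50 without vehicle 3, where 9 of the 10 lay below 0, and 0.46 in the control-adjusted fit, where all 10 lay above 0. Acadvl, the very long-chain acyl-CoA dehydrogenase, read 12.73, 12.24 and 12.43 on VE50 arrays against 13.16, 13.01 and 13.00 on vehicle arrays. These groups did not overlap, and the difference was -0.59 ± 0.29 (adjusted p = 0.823). At VE100, with 11.92, 13.05 and 12.46, Acadvl overlapped with vehicle through VE100 2 and differed by -0.58 ± 0.29 (adjusted p = 0.557); without that array it passed the criterion at -0.87. Acadm, the medium-chain dehydrogenase, differed by -0.46 ± 0.33 for VE50 and -0.49 ± 0.33 for VE100. Without vehicle 3 it passed the criterion at both doses, at -0.80 (adjusted p = 0.237) and -0.84 (adjusted p = 0.154). Acaa2, the thiolase of the last step, was the gene with the highest difference of the list at VE100, 0.40 ± 0.21 (adjusted p = 0.586), and passed the criterion without VE100 1 (0.56). Hadha and Hadhb are the 2 subunits of the trifunctional protein of long-chain oxidation: at VE100 they differed by 0.07 ± 0.28 and -0.42 ± 0.30. Hadh, the short-chain hydroxyacyl-CoA dehydrogenase, differed by -0.34 ± 0.46 for VE100, and by -0.91 without vehicle 3 (adjusted p = 0.162). The remaining genes, Acadl and Acads (dehydrogenases of long and short chains), Eci1 (an isomerase) and Decr1 (a reductase, both for unsaturated chains), differed by between -0.32 and 0.07 over both doses, each with an SE of at least 0.23.

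The electron transfer flavoprotein genes carry electrons from the acyl-CoA dehydrogenases to the respiratory chain. Etfa, the alpha subunit, differed by 0.29 ± 0.28 for VE50 and 0.21 ± 0.28 for VE100. Etfdh, the dehydrogenase that reoxidises the flavoprotein, differed by 0.02 ± 0.36 and 0.12 ± 0.36. Neither passed the criterion with all arrays or without vehicle 3.

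Peroxisomal beta-oxidation held the 1 gene called as lower. Acaa1b, a peroxisomal 3-ketoacyl-CoA thiolase that PPAR-alpha drives in rodents, read 11.49, 11.86 and 11.15 on VE100 arrays against 12.36, 12.65 and 11.81 on vehicle arrays. All VE100 arrays lay below vehicle 1 and 2, and VE100 2 lay just above vehicle 3. The difference was -0.77 ± 0.27 (0.585-fold, limma, adjusted p = 0.447), and at VE50 -0.52 ± 0.27 (adjusted p = 0.824). Without vehicle 3 it was -1.01 for VE100 (adjusted p = 0.0722) and -0.76 for VE50, past the criterion at both doses, and without vehicle 2 (-0.59) or VE100 3 (-0.60) the VE100 call was lost. The control-adjusted fit gave -0.10 for VE100, which did not pass. Acaa1a, its close relative, differed by 0.16 ± 0.29 for VE100; the copies are similar in sequence, and how far their probes share signal was not tested. Ehhadh, the bifunctional enzyme of the peroxisome and a classic PPAR-alpha target, read 16.26, 16.39 and 14.65 on vehicle arrays, 15.02, 15.20 and 15.02 on VE50 arrays, and 15.40, 15.56 and 14.99 on VE100 arrays. As for Cpt2, all 6 treated arrays lay between vehicle 3 and the other vehicle arrays. The difference of Ehhadh was -0.69 ± 0.41 for VE50 and -0.45 ± 0.41 for VE100, and without vehicle 3 -1.25 (adjusted p = 0.0695) and -1.01 (adjusted p = 0.0558). Decr2, the peroxisomal dienoyl-CoA reductase, differed by -0.79 ± 0.43 for VE50 (adjusted p = 0.826) and -0.71 ± 0.43 for VE100 (adjusted p = 0.627), and passed the criterion at both doses without vehicle 3, at -1.18 and -1.09. Eci2, an enoyl-CoA isomerase, differed by -0.10 ± 0.42 and 0.21 ± 0.42, and passed as higher for VE100 in the control-adjusted fit (1.57).

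Acyl-CoA thioesterases split acyl-CoA into free fatty acid and coenzyme A. Acot1 acts in the cytosol, Acot2 in mitochondria, and Acot3 and Acot4 in peroxisomes; all are known PPAR-alpha targets in mouse liver and lie next to each other on chromosome 12. Of the 4 genes, 3 passed the criterion as higher for VE100, where 5.11% of all probe sets did. None passed for VE50, where 3.31% of all probe sets passed as higher. All 4 lay above 0 at both doses with all arrays. Acot3 read 10.94, 12.96 and 8.31 on vehicle arrays, 11.46, 11.51 and 12.31 on VE50 arrays, and 12.72, 13.89 and 12.16 on VE100 arrays. Acot4 read 8.44, 9.35 and 6.45 on vehicle arrays, 9.47, 8.78 and 9.48 on VE50 arrays, and 9.34, 10.84 and 9.12 on VE100 arrays. Acot1 read 7.59, 8.79 and 6.5 on vehicle arrays, 8.80, 8.57 and 8.99 on VE50 arrays, and 8.25, 10.37 and 8.58 on VE100 arrays. In all 3 genes vehicle 3 was the lowest and VE100 2 the highest of the 9 arrays, and VE100 overlapped with vehicle through vehicle 2. The differences for VE100 were 2.19 ± 0.93 for Acot3 (adjusted p = 0.502), 1.69 ± 0.67 for Acot4 (adjusted p = 0.474) and 1.44 ± 0.61 for Acot1 (adjusted p = 0.502). For VE50 they were 1.02 ± 0.93, 1.16 ± 0.67 and 1.16 ± 0.61. Acot2 differed by 0.60 ± 0.52 for VE100 and 0.53 ± 0.52 for VE50. None of the 3 calls held without vehicle 3, where the differences for VE100 were 0.97 for Acot3 (adjusted p = 0.445), 0.87 for Acot4 (adjusted p = 0.394) and 0.88 for Acot1 (adjusted p = 0.459). All were lost, too, without VE100 2, at 1.70, 1.15 and 0.79. The calls of Acot1 and Acot3 were lost as well without vehicle 1 (1.42 and 2.29) or any 1 VE50 array, and that of Acot3 without VE100 1 (2.29). Without vehicle 2, the highest vehicle array, all 3 genes passed for VE50 too, at 2.13 for Acot3, 1.80 for Acot4 and 1.74 for Acot1. All 3 VE100 calls were lost with array weights (1.10 for Acot3, 1.10 for Acot4 and 1.08 for Acot1), a setting that counts vehicle 3 least. They were also lost in fits to only the arrays compared, and that of Acot4 with the series value table (1.66). All 4 genes passed for VE100 in the control-adjusted fit, at 4.45 for Acot3, 3.84 for Acot4, 3.39 for Acot1 and 2.34 for Acot2 (adjusted p = 0.806 for each). For VE50 Acot4 (2.44), Acot1 (2.32) and Acot2 (1.56) passed there too (adjusted p = 0.779 for each). In that fit 3.02% of all probe sets passed as higher for VE100 and 3.22% for VE50. Acot1 was above the negative control level on 1 of 3 vehicle arrays, 2 of 3 VE50 arrays and 1 of 3 VE100 arrays, so part of its signal lies near background. Of the 3 vehicle arrays, 2 were above that level for each of Acot2, Acot3 and Acot4, so the distance from vehicle includes a value near background for these genes as well. These genes are near-identical in parts, and cross-hybridisation between their probe sets was not tested.

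**Figure D3:**
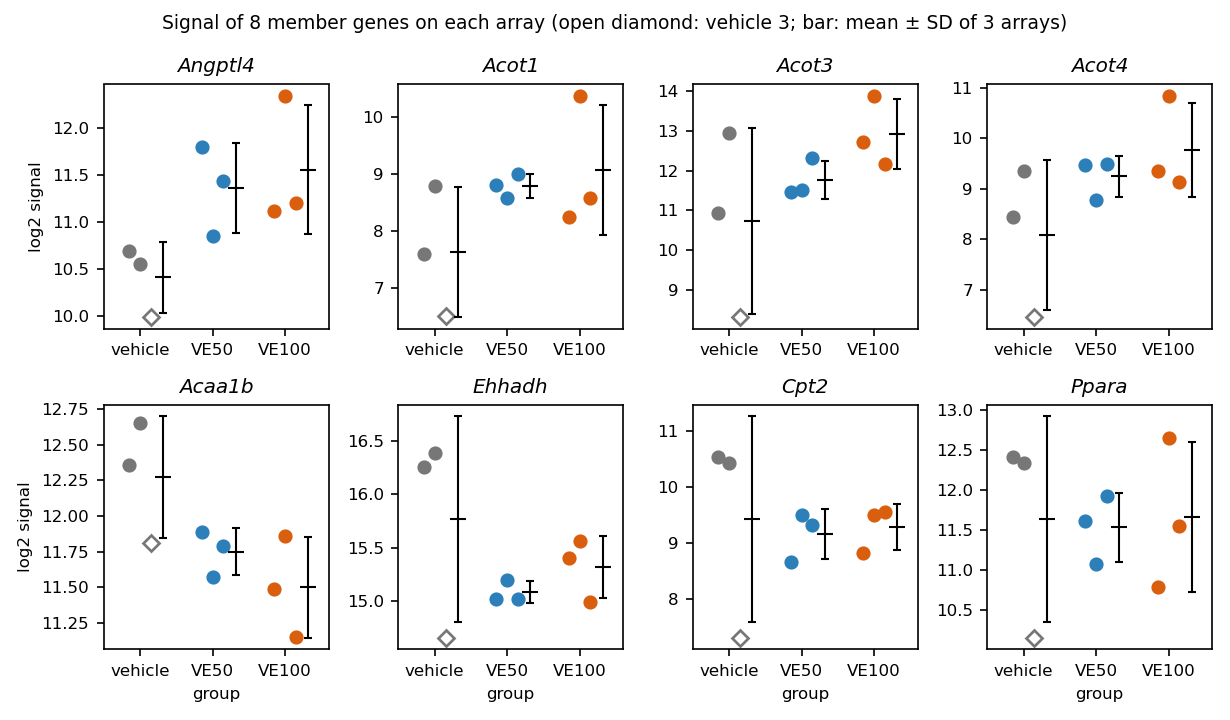
Log2 signal (vertical axis) of 8 of the genes on each array of vehicle, VE50 and VE100; dots are arrays, the open diamond is vehicle 3, and bars are the mean ± SD of 3 arrays. Vehicle 3 is the lowest array in every panel but that of Acaa1b, and for Cpt2 and Ehhadh all treated arrays lie between it and the other vehicle arrays.

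The stretch around the start of transcription is shown for the 3 thioesterase genes that passed and for Fabp1, whose promoter came closest to the element that PPAR-alpha binds. That element is AGGTCA, any 1 base and AGGTCA again, and it was searched on both strands over the 250 bases before and 50 after each start of transcription. RefSeq promoters (GRCm38.p6) matched 31 of the 35 symbols; sequences of Acaa2, Angptl4, Decr1 and Vnn1 were not used here. The lines below run 5′ to 3′ on the plus strand from 120 bases before to 30 after the start, and capitals mark the best match to the element in the searched window.
Acot1 (chr12:84009382-84009531): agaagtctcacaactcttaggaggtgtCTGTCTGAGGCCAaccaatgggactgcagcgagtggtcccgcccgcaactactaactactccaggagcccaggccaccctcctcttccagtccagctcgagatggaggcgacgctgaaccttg
Acot3 (chr12:84052024-84052173): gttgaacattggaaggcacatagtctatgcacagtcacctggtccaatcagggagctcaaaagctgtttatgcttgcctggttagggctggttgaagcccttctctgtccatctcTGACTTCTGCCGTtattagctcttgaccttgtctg
Acot4 (chr12:84038259-84038408): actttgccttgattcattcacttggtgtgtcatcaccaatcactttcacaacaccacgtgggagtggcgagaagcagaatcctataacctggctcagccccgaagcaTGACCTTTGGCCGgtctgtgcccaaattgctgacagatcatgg
Fabp1 (chr6:71199759-71199908): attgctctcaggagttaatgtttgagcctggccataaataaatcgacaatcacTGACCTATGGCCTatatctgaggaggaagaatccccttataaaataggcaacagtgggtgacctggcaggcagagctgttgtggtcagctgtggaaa
The match in Fabp1 had 1 mismatch over the 12 fixed bases, that in Acot4 had 2, that in Acot3 had 3 and that in Acot1 had 4. Of all 32851 promoters of the same length, 0.554% held a match with at most 1 mismatch, 3.86% with at most 2 and 24.6% with at most 3. These shares are of single promoters, while a gene was counted if any of its promoters matched, and 4 of the 31 genes had more than 1. Of the 31 genes, 12 had a match with at most 3 mismatches. Only 6 had a match with at most 2 mismatches. Besides Fabp1 and Acot4 these were Cd36 (TGGCCTCTGACTT), Creb3l3 (AGGGGAGAGGTCA), Etfa (TTACCTTTGCCCT) and Slc25a20 (AGGTGAAAGGTCG). Of these 6, Acot4 alone passed the criterion with all arrays, at VE100. A match says nothing of binding in these livers.

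Bdh1, Vnn1 and Pdk4 did not pass the criterion for either dose against vehicle in the main fit with all arrays. Bdh1, the mitochondrial hydroxybutyrate dehydrogenase, differed by 0.13 ± 0.37 for VE50 and -0.22 ± 0.37 for VE100, and passed as lower for VE100 without vehicle 3 (-0.65, adjusted p = 0.260). Vnn1, a pantetheinase that PPAR-alpha induces, differed by -0.04 ± 0.62 and -0.55 ± 0.62, and passed as lower for VE100 without vehicle 3 (-1.21, adjusted p = 0.250). Its values spread widely, at 11.06, 11.61 and 9.64 on VE100 arrays against 11.44, 12.52 and 9.99 on vehicle arrays. Pdk4, the kinase that shuts off pyruvate dehydrogenase in fasting, was not above the negative control level on any array and differed by -0.83 ± 0.49 for VE50 (adjusted p = 0.833) and -0.12 ± 0.49 for VE100.

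Of the secreted factors Angptl4 was the one gene past the criterion at both doses. Angptl4 encodes an inhibitor of lipoprotein lipase and is a target of PPAR-alpha in liver. It read 10.70, 10.56 and 9.99 on vehicle arrays, 11.80, 10.86 and 11.44 on VE50 arrays, and 11.12, 12.35 and 11.21 on VE100 arrays. All 6 treated arrays lay above all 3 vehicle arrays. The difference was 0.95 ± 0.37 for VE50 (1.93-fold, limma, adjusted p = 0.795) and 1.14 ± 0.37 for VE100 (2.21-fold, adjusted p = 0.429). Without vehicle 3 it was 0.74 for VE50 (adjusted p = 0.439), no longer past the criterion, and 0.93 for VE100 (adjusted p = 0.242), still past it. The VE50 call was also lost without VE50 1 (0.73) or VE50 3 (0.91), and the VE100 call without VE100 2 (0.75, adjusted p = 0.669). The control-adjusted differences of Angptl4 were 1.65 for VE50 (adjusted p = 0.779) and 2.33 for VE100 (adjusted p = 0.806), both past the criterion. Fgf21, the fasting hormone made by liver under PPAR-alpha, was not above the negative control level on any array, at 3.23 to 4.92. Its signal was thus not told apart from background, which limits what its differences of 0.39 ± 0.45 for VE50 and 0.05 ± 0.45 for VE100 can show.

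The doses were compared directly. None of the 34 genes passed the criterion for VE100 against VE50, where 2.91% of all probe sets passed. The smallest unadjusted p belonged to Cd36, at -0.41 ± 0.27. Acot3 had the highest difference, 1.16 ± 0.93 (adjusted p = 1). Without vehicle 3, which here alters only the estimate of the spread, Acot3 was the 1 gene that passed (adjusted p = 0.885), where 5.62% of all probe sets passed (2.54% as higher). In the control-adjusted fit 3 passed as higher, Acot4, Eci2 and Pdk4, where 2.36% of all probe sets passed (1.18% as higher). Over the 3 groups together, the limma F-test called no probe set after adjustment. Before adjustment 2 of the 34 genes had p under 0.05, Angptl4 (adjusted p = 0.760) and Acaa1b (adjusted p = 0.763), against 6.54% of all probe sets.

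Leaving out vehicle 3 changed which genes were called. For VE50 6 of the 34 then passed the criterion, Fabp1 as higher and Cpt2, Acadm, Ehhadh, Acaa1b and Decr2 as lower, where 13.5% of all probe sets passed. For VE100 9 passed, Angptl4 as higher and those 5 with Hadh, Bdh1 and Vnn1 as lower, where 16.6% of all probe sets passed. The lower calls stood at 5 and 8 of 34, against 7.52% and 9.62% of all probe sets, and the higher calls at 1 and 1, against 5.95% and 6.99%. Of the 34 genes, 12 were lower on every VE50 array than on vehicle 1 and 2, against 14.9% of all probe sets, and 3 were higher, against 15.6%. For VE100 11 were lower, against 16.9%, and 1 was higher, against 17.0%. The median difference over the 34 genes was -0.27 for both VE50 and VE100, with 24 and 25 genes below 0, beside 0.02 and 0.03 over all probe sets. No gene reached an adjusted p under 0.05; the smallest was 0.0558, for Ehhadh at VE100, while 434 probe sets (1.95%) reached it for VE100 and 10 (0.0450%) for VE50. The remaining vehicle arrays stood apart from all treated arrays in their control probe sets. Hybridization controls averaged 10.93 to 11.44 over the 6 treated arrays, against 10.84 and 10.73 on vehicle 1 and 2 and 11.01 on vehicle 3. The median of negative controls minus that of positive controls lay between -3.53 and -3.12 over the treated arrays, against -3.88 and -3.79 on vehicle 1 and 2. Among the endothelial markers, Fcgr2b and Kdr also passed as lower at both doses without vehicle 3. They stood at -1.40 and -0.89 for VE50 and -0.76 and -0.73 for VE100. Kdr was above the negative control level on 3 of 9 arrays and on no VE50 array. Sox9 of the cholangiocyte list, above that level on no array, passed as lower at both doses too (-0.72 and -0.56). Among markers of other lists, Adgre1, Cd5l, Cd68, Vsig4 and Reln passed as lower for VE100 only, and Fgb as higher. The part of these cells in the lower calls was not tested. Once vehicle 3 is left out, treatment cannot be told apart from this difference between arrays. In the plot of both estimates, the thioesterase genes move toward 0 and most oxidation genes move below it when vehicle 3 is left out.

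**Figure D4:**
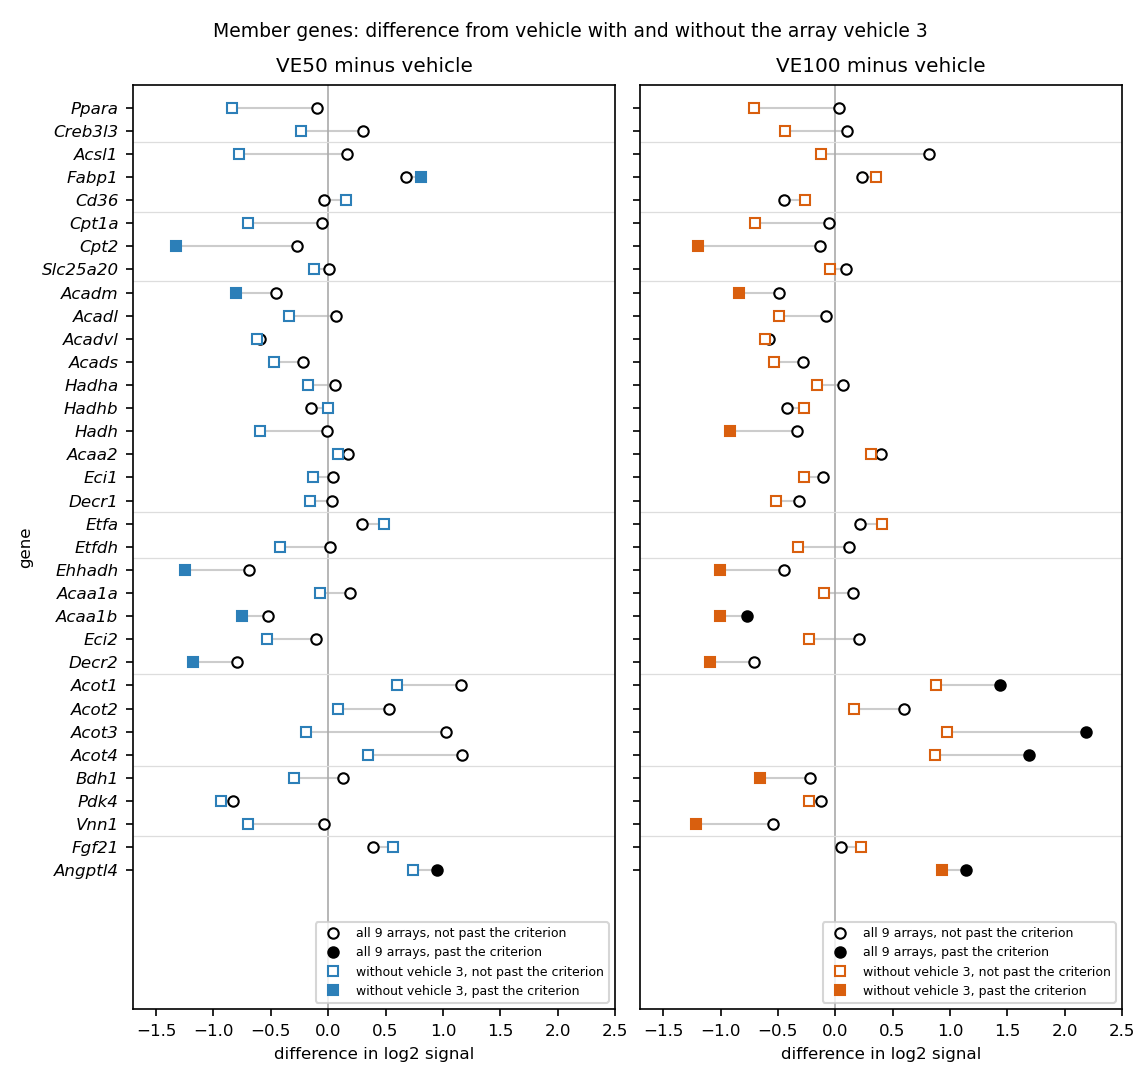
Difference in log2 signal from vehicle for each of the 34 genes (rows), for VE50 (left) and VE100 (right), with all 9 arrays (black circles) and without vehicle 3 (coloured squares); filled symbols passed the study's criterion. At VE100 5 genes are filled with all arrays and 9 without vehicle 3, and Angptl4 and Acaa1b are filled in both.

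Another 119 genes of the pathway, in 9 lists, were set beside these, of which 116 were measured. For VE50 3 of the 116 passed the criterion (1 higher, 2 lower) and for VE100 9 (4 higher, 5 lower), or 2.59% and 7.76%, against 6.12% and 9.48% of all probe sets. Their median difference was -0.01 for VE50 and -0.03 for VE100. None had an adjusted p under 0.05; the smallest was 0.794 for VE50 and 0.409 for VE100. Without vehicle 3, 24 passed the criterion for VE50 (3 higher, 21 lower) and 27 for VE100 (4 higher, 23 lower), against 13.5% and 16.6% of all probe sets; these are 20.7% and 23.3% of the 116. The lists, like the 34 genes, were chosen with earlier results of these data known.

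Among the ketogenesis genes, Slc16a1, the monocarboxylate transporter through which ketone bodies leave the cell, passed as lower for VE100. It read 8.51, 8.95 and 8.35 on VE100 arrays against 9.85, 9.16 and 9.54 on vehicle arrays, a difference of -0.91 ± 0.28 (adjusted p = 0.409). The groups did not overlap, and without vehicle 3 Slc16a1 still passed, at -0.90. Its control-adjusted difference was -0.42 and did not pass. Acat1, a mitochondrial acetoacetyl-CoA thiolase, differed by -0.01 ± 0.25 for VE50 and 0.02 ± 0.25 for VE100. Bdh2, a cytosolic dehydrogenase not above the negative control level on any array, differed by -0.17 ± 0.36 and -0.02 ± 0.36.

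Among 21 further genes of peroxisomal oxidation, Acox2, the oxidase of branched chains and bile acid intermediates, was the one gene lower at both doses. It read 14.77, 14.06 and 14.19 on vehicle arrays, 13.73, 13.16 and 14.02 on VE50 arrays, and 13.12, 13.69 and 13.40 on VE100 arrays, and no treated array reached the lowest vehicle array. The difference was -0.70 ± 0.29 for VE50 (adjusted p = 0.795) and -0.94 ± 0.29 for VE100 (adjusted p = 0.409), and -0.78 and -1.01 without vehicle 3. The VE50 call was lost without vehicle 1 (-0.49), VE50 1 (-0.75) or VE50 2 (-0.47), in fits to only the arrays compared and with the replicate number as a block. In the control-adjusted fit Acox2 lost both calls, at -0.58 for VE50 and -0.73 for VE100. Hacl1, a lyase of phytanic acid breakdown, passed as higher for VE100 against vehicle (1.20 ± 0.47, adjusted p = 0.467) and against VE50 (1.29 ± 0.47, adjusted p = 1), a call lost without VE100 2, VE100 3, VE50 1 or VE50 2 (0.98 to 1.25). It read 12.85, 14.56 and 14.43 on VE100 arrays against 12.81, 13.28 and 12.15 on vehicle arrays, so VE100 1 lay among the vehicle arrays; the call against vehicle was lost without vehicle 3 (0.90), VE100 2 (0.89) or VE100 3 (0.96), and in the control-adjusted fit it was 2.2 and passed.

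Omega oxidation, the hydroxylation of the far end of the chain by CYP4A and CYP4F enzymes, had 8 of 9 listed genes measured. Their median difference was -0.16 for VE50 and 0.70 for VE100, with 6 of 8 above 0 at VE100. Without vehicle 3 the median was -0.75 for VE50 and 0.14 for VE100, with 5 of 8 above 0 at VE100. Only Cyp4a31 passed, as higher for VE100, with 9.09, 10.10 and 10.39 on VE100 arrays against 8.87, 9.46 and 7.65 on vehicle arrays. The difference of 1.20 ± 0.47 (adjusted p = 0.465) was 0.70 without vehicle 3, 1.08 without VE100 2 and 0.94 without VE100 3, and lost the call in each; the series value table (0.50) lost it too. Its control-adjusted difference was 2.35 and passed. Cyp4a31 was above the negative control level on 2 of 3 VE100 arrays and 2 of 3 vehicle arrays, and on 5 of 9 in all. The CYP4A genes are close relatives, and cross-hybridisation was not tested.

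Of the 16 receptor partners and coregulators measured, Nrip1, a corepressor of nuclear receptors, passed as higher for VE100. It read 10.99, 10.87 and 10.27 on VE100 arrays against 9.73, 10.26 and 8.81 on vehicle arrays, 1.11 ± 0.36 higher (adjusted p = 0.418), and kept the call without vehicle 3 (0.72) and in the control-adjusted fit (1.85). Of 11 genes listed for the malonyl-CoA brake on CPT1, with further CPT1 isoforms among them, 1 passed each way for VE100. Acaca, a carboxylase that makes malonyl-CoA, read 11.37, 10.69 and 10.08 on VE100 arrays against 12.33, 12.04 and 11.55 on vehicle arrays. The difference was -1.26 ± 0.40 (adjusted p = 0.410), and -1.47 without vehicle 3 (adjusted p = 0.0898). In the control-adjusted fit Acaca stood at -0.54 and did not pass. Mlycd, the decarboxylase that removes malonyl-CoA, differed by 0.80 ± 0.35 (adjusted p = 0.518), and by 0.38, not past the criterion, without vehicle 3. Mlycd also lost its call without VE100 2 (0.57), VE100 3 (0.91) or any 1 VE50 array (0.80), stood at 1.68 and passed in the control-adjusted fit, and was above the negative control level on 1 of 9 arrays. The other CPT1 isoforms, Cpt1b of muscle and Cpt1c of brain, were not above that level on any array, with 0.35 ± 0.27 and 0.07 ± 0.28 for VE100.

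The remaining lists held few calls. Gpd1, the cytosolic glycerol-3-phosphate dehydrogenase, passed as lower at both doses among 15 other PPAR-alpha responsive genes, with -0.92 ± 0.36 for VE50 (adjusted p = 0.795) and -0.94 ± 0.36 for VE100 (adjusted p = 0.462). Without vehicle 3 these were -1.28 and -1.30 (adjusted p = 0.109 and 0.0606), and both calls were lost without vehicle 1 (-0.80, -0.82) or vehicle 2 (-0.68, -0.70). The VE50 call was lost without VE50 2 (-0.83) or VE50 3 (-0.92) too, and the VE100 call without VE100 1 (-0.85) or VE100 3 (-0.70). Gpd1 lost both calls in the control-adjusted fit, at -0.27 for VE50 and 0.15 for VE100. Angptl8, a secreted regulator of lipoprotein lipase, passed as higher for VE50 (7.95, 8.92 and 9.03 on VE50 arrays against 6.82, 7.92 and 7.02 on vehicle arrays, 1.38 ± 0.46, adjusted p = 0.794). It also passed as lower for VE100 against VE50 (-1.43 ± 0.46, adjusted p = 1). Angptl8 lost these calls without VE50 3 (1.18) and without VE100 2 (-1.15), the first also in the control-adjusted fit (1.09), and was above the negative control level on 1 of 9 arrays. No gene passed among fatty acid uptake, binding and activation (14 measured, Acsl4 of smallest p at -0.59 ± 0.31 for VE100) or among other acyl-CoA enzymes of the mitochondrial matrix (16 measured, Acad12 of smallest p at 0.52 ± 0.24 for VE100).

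**Figure D5:**
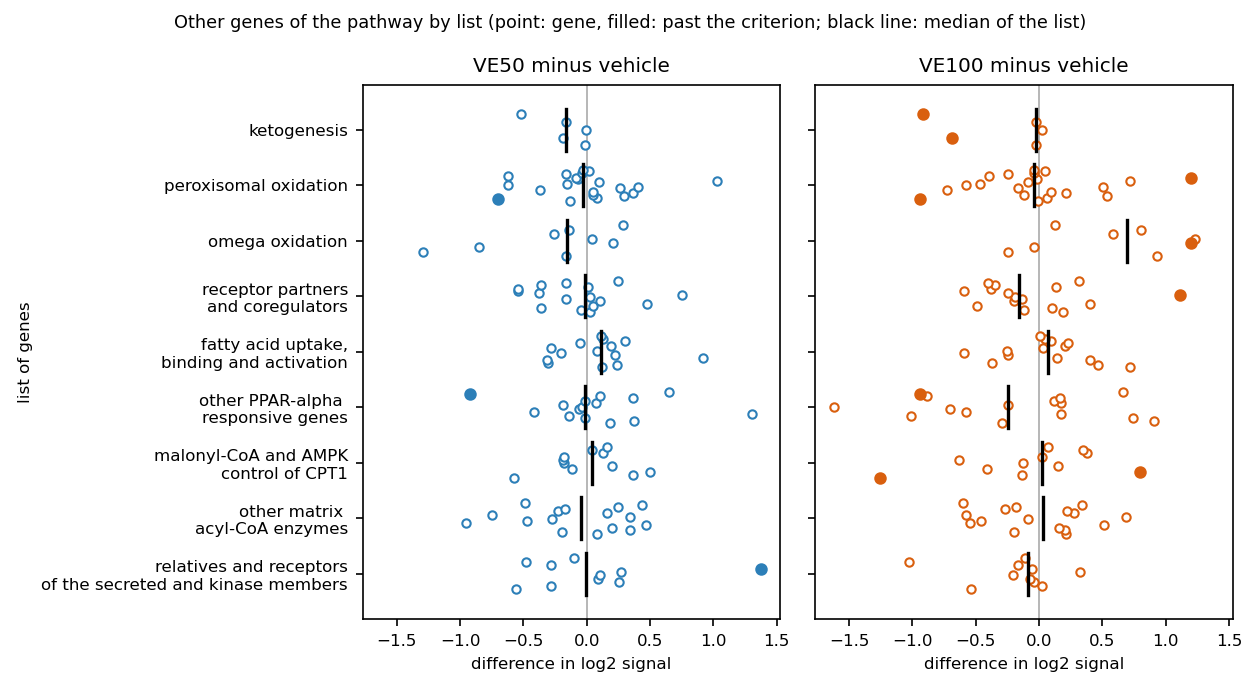
Difference in log2 signal from vehicle (horizontal axis) of the 116 other genes of the pathway by list (rows), for VE50 (left) and VE100 (right); each point is a gene, filled where it passed the study's criterion, and black lines are list medians. The filled points number 3 for VE50 and 9 for VE100, and the omega oxidation list has its median at 0.70 for VE100, which is 0.14 without vehicle 3.

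The authors' deposited table of VE100 against vehicle, which lists 1815 probe sets (8.17% of all), holds the same 5 of the 34 genes. Its signed fold, negative where VE100 was lower, is 4.1 for Acot3, 1.97 for Acot4, 1.75 for Acot1, 1.48 for Angptl4 and -1.75 for Acaa1b in the authors' deposited table. This fold is linear, not log2. The linear folds of the limma fit here were 4.55 for Acot3, 3.22 for Acot4, 2.71 for Acot1 and 2.21 for Angptl4. The authors' folds were smaller for each of these higher genes. Acaa1b was 0.585-fold in the limma fit. The FDR values in the authors' deposited table lie between 0.542 and 0.564 for these genes. For Angptl4 the authors' deposited table gives group levels of 11.17 for VE100 and 10.6 for vehicle, where the means of the 3 arrays were 11.56 for VE100 and 10.42 for vehicle.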

How the data were processed

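Liver RNA was measured on 9 Clariom S arrays. The authors' deposited signal sheet holds log2 signal per probe set, which the design text says came from SST-RMA in version 4.0.2 of the Transcriptome Analysis Console software: background correction, normalisation across arrays, and 1 value per probe set from its probes. The authors' deposited table of VE100 against vehicle gives p-values, FDR values and a signed fold score. Per the submitters' processing notes, RMA and version 4 of that software were used. The genome build is not given in the sources used here. A deposited value table, also log2, supplied the control probe sets and the check against the 95th percentile of the negative controls.

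All 22206 probe sets were fitted with limma 3.58.1 (lmFit with a mean per group, eBayes) in R 4.3.3 over the 9 arrays, without a covariate. P-values are two-sided and adjusted by Benjamini-Hochberg over all probe sets. The fit was tested on simulated data with a known change added to the VE100 arrays. Noise was drawn independently for each array, with 1 spread per probe set shared by all groups, so no array stood apart. On the real vehicle arrays the median SD was 0.65 over the 34 genes and 0.36 over all probe sets. The counts that follow may therefore not hold for the 34 genes. At a log2 change of 0.5, 0 of 50 changed probe sets reached an adjusted p under 0.05 against vehicle. At changes of 1, 2 and 3 it was 12, 34 and 47 of 50. A lack of adjusted calls therefore does not show a lack of change. Group, contrast and study criterion (p under 0.05, fold above 1.1) follow the design text. The members and lists were chosen with earlier results of these data known. All measured members are named; from each of the 9 pathway lists up to 4 genes past the criterion in any contrast by smallest p, or the 1 of smallest p, and ketogenesis and the CPT1 isoforms in full, except that some genes of these lists are not reported here. No batch or date was given, and the number of arrays limits the precision. Same-numbered arrays did not deviate together (correlations of -0.24 to 0.21), so numbers were not used as pairs. Alternatives were 9 fits without 1 array each and 9 other settings.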

Additional observations from a re-analysis of the deposited data

How the results depend on the processing

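The 34 genes in 3 comparisons gave 1836 values under 18 alternatives. Of these, 1731 kept their direction and their side of the criterion or moved by less than the replicate spread. Another 29 lost a call, 53 gained one, 23 moved further, and no called value of these genes reversed. Among values past the criterion in neither fit, 192 changed sign. Downweighting arrays by their quality (array weights) gave vehicle 3 a weight of 0.22, against 0.81 to 1.91 on the other arrays. This setting is therefore not separate from leaving vehicle 3 out. With array weights 2902 probe sets passed the criterion for VE50 against vehicle and 3743 for VE100 against vehicle. For VE100 against VE50 it gave 1267, and for VE100 against vehicle 125 adjusted calls. Of the 34 genes, 1 then passed as higher and 5 as lower for VE50, and 1 as higher and 6 as lower for VE100. With the hybridization controls as a covariate, 5 genes passed as higher for VE50 (median 0.52), 7 as higher and 0 as lower for VE100 (median 0.75, 1320 probe sets past the criterion) and 3 as higher for VE100 against VE50; Gpd1 was reversed to 0.15 for VE100. Fits to only the arrays compared gave 1 gene higher and 1 lower for VE50, and 1 higher and 1 lower for VE100. For VE100 against VE50 they gave 1 gene higher, with 1119 probe sets past the criterion. The series value table gave 2 genes higher for VE50, and 3 higher and 1 lower for VE100, with 1 adjusted call for VE100.

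Leaving out 1 array at a time gave ranges over 9 fits. For VE50 against vehicle these were 0 to 10 adjusted calls, 987 to 2991 probe sets past the criterion, 0 to 4 genes higher, 0 to 5 lower and a median of -0.27 to 0.28. For VE100 against vehicle they were 0 to 434, 1619 to 3688, 0 to 4, 0 to 8 and -0.27 to 0.14. For VE100 against VE50 they were 0 to 0, 413 to 1247, 0 to 1, 0 to 2 and -0.24 to 0.16. The F-test gave 0 to 107 adjusted calls. The upper ends of the adjusted calls and of the probe set counts came without vehicle 3. In fits that leave 2 arrays in a group, the spread is estimated over all arrays.

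With the replicate number as a block, limma made 0 adjusted calls in each comparison and 1250, 1947 and 634 probe sets passed the criterion for VE50 against vehicle, VE100 against vehicle and VE100 against VE50; the counts of the 34 genes were the same as without it, and Acox2 lost its VE50 call. The numbers did not pair the arrays. Averaging several probe sets per gene was not run, since each of the 34 genes had 1. Mlycd, named among the other genes of the pathway, had 2, and only the one of higher mean signal was used. Near background, for Fgf21, Pdk4 and most values of Acot1, signal limits what can be measured.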

Other observations

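The probe set that Etfb shares with Mir7051 read 9.40, 9.42 and 10.71 on vehicle arrays, 9.92, 9.56 and 10.04 on VE50 arrays, and 10.03, 9.91 and 10.19 on VE100 arrays. The groups overlapped, with vehicle 3 the highest array, and the difference was 0.20 ± 0.34 (SE) for VE100 against vehicle.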
